A study of Mus musculus with 24 samples.

Results

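Regulators of G protein signaling (RGS proteins) and 2 G alpha subunits were examined in mouse lymph node B cells lacking PU.1, SpiB or both. The genes were Rgs1, Rgs2, Rgs10, Rgs14, Rgs16, Rgs18, Rgs19, Gnai2 and Gna13. They were chosen by symbol, with earlier results of these data known, and are 9 of the 27179 genes listed in the raw count tables. RNA was sequenced in 24 libraries, from 4 genotypes and 3 stages, 2 libraries to a group. The stages were naive cells, 48 h of culture in CD40L + IL-4, and 48 h in LPS + IL-4.

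All mice were on a C57BL/6 background and were 6 to 20 weeks of age. Control mice were Cd23T/+ and carried only the Cd23-Cre transgene, which is driven by Cd23 regulatory sequences and active from the transitional B cell stage. PU.1 cKO mice were Spi1fl/fl Cd23T/+. SpiB KO mice were Spi1fl/fl Cd23+/+ Spib-/-, so they had floxed Spi1 alleles but no Cre. PU.1 SpiB DKO mice were Spi1fl/fl Cd23T/+ Spib-/-. A comparison of SpiB KO with control or with PU.1 SpiB DKO therefore also compared cells without and with Cre. Tests of both losses against the sum of the single losses include SpiB KO and carry this difference too. The study's methods call the 2 libraries of a group biological replicates and, like the labels, do not say whether they came from separate mice, so p-values measure the spread between these libraries. The study also describes the floxed Spi1 exon as partly retained in naive PU.1 SpiB DKO cells, which limits that group as a model of PU.1 loss.

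A heterotrimeric G protein is switched on when a receptor makes its alpha subunit exchange GDP for GTP, and it is switched off when the alpha subunit hydrolyzes the GTP. RGS proteins speed up this hydrolysis and so shorten the signal. In B cells the chemokine receptors that guide follicle entry and movement signal through the inhibitory G alpha subunit encoded by Gnai2, while the subunit encoded by Gna13 couples receptors that hold B cells within germinal centers.

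A library held 14231188 to 18194629 counts in naive cells and 22757630.0 to 73658850.0 in LPS + IL-4 cultures. In CD40L + IL-4 cultures, replicate 2 of PU.1 cKO held 61640683 counts and the other 7 libraries 9598674 to 11434235. The B cell markers Ms4a1, Cd79a, Cd79b, Pax5 and Cd22 were detected in all 24 libraries. Spib, the gene disrupted in both mutants without SpiB, went from 1395 and 1585 CPM (counts per 1000000, TMM-scaled over all 24 libraries) in naive control to 86.1 and 92.1 CPM for SpiB KO and 105 and 108 CPM for PU.1 SpiB DKO. Spi1, which encodes PU.1, was at 167 and 179 CPM for naive control, 58.7 and 65.3 CPM for PU.1 cKO and 109 and 118 CPM for PU.1 SpiB DKO, counted over the whole gene and not only the floxed exon. Both naive PU.1 SpiB DKO libraries thus lay above both naive PU.1 cKO libraries. After CD40L + IL-4 the values were 83.2 and 105 CPM for control, 34.3 and 45.4 CPM for PU.1 cKO and 24.9 and 31.3 CPM for PU.1 SpiB DKO. After LPS + IL-4 they were 60.3 and 69.4 CPM for control, 39.2 and 42.7 CPM for PU.1 cKO and 54.4 and 59.0 CPM for PU.1 SpiB DKO. The last lay just below control and above PU.1 cKO. The study describes the floxed exon as fully lost after CD40L + IL-4, with similarly high deletion after LPS + IL-4. Counts over the whole gene cannot show how much of that exon was lost. Mutants are called without PU.1 or without SpiB below by their genotype.

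On the mouse genome (build GRCm38), 4 of the 7 RGS genes lie on chromosome 1. Rgs2 (143999338 to 144004149), Rgs1 (144244669 to 144249104) and Rgs18 (144752683 to 144775427) are within 776 kb of each other on the minus strand, with Rgs13 and Rgs21 between them. Rgs16 (153740353 to 153745468, plus strand) lies farther along the chromosome, just beyond Rgs8. Rgs10 is at 128373621 to 128419506 on chromosome 7, Rgs14 at 55369732 to 55384687 on chromosome 13 and Rgs19 at 181688419 to 181694537 on chromosome 2. Gnai2 is at 107614125 to 107635391 on chromosome 9 and Gna13 at 109362794 to 109401369 on chromosome 11. The counting used no strand information as far as the sources used here state. The annotation places exons of an opposite-strand transcript over 236 bases (10.1%) of the Rgs16 exons and 151 bases (2.35%) of the Gna13 exons, and no exon of another gene over those of the other 7.

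The 250 bases before the transcription start are shown for 4 RGS genes whose levels changed in the mutants, because PU.1 and SpiB bind the same DNA, built around GGAA, with GAGGAA a form that PU.1 favors. RefSeq start sites were at hand for 5 of the 9 genes (Rgs2, Rgs10, Rgs16, Rgs19 and Gna13) and not for Rgs1, Rgs14, Rgs18 and Gnai2. Each sequence is given 5′ to 3′ on the strand of the gene (RefSeq, GRCm38.p6), with GAGGAA on either strand in capitals (TTCCTC where it is on the other strand). For Rgs19 the window is that of the most upstream of 3 listed starts, and for Rgs10 and Rgs19 the start lies inside the outermost limits of the gene given above. The windows are chr1:153740103-153740352 (plus) for Rgs16, chr2:181693978-181694227 (minus) for Rgs19, chr1:144004150-144004399 (minus) for Rgs2 and chr7:128418173-128418422 (minus) for Rgs10.
Rgs16: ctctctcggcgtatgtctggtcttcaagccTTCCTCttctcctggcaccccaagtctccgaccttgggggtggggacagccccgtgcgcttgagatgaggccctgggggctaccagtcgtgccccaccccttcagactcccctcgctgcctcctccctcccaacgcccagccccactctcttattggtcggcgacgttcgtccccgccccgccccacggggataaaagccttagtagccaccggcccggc
Rgs19: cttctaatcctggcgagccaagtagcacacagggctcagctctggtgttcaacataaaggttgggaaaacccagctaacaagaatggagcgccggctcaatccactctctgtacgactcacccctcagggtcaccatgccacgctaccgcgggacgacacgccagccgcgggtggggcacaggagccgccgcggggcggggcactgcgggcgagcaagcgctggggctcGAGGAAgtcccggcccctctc
Rgs2: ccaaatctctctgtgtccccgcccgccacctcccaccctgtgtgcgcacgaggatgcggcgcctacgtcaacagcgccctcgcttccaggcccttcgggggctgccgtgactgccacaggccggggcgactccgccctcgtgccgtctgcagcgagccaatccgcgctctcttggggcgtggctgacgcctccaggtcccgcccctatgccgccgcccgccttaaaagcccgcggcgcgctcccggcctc
Rgs10: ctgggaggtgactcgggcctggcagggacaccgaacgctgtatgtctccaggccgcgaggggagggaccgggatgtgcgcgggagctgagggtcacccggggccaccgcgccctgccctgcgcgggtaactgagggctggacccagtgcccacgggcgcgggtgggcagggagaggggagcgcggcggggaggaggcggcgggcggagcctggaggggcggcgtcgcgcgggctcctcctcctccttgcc
The Rgs16 window holds GAGGAA once, 220 bases before the start and on the opposite strand, and the Rgs19 window holds it once, 21 bases before the start. Those of Rgs2, Rgs10 and Gna13 do not hold these letters. Among 32851 windows of the same length over all genes, 23.3% hold GAGGAA on either strand. The shorter GGAA is in 93.4% of these windows, those of Rgs2 and Gna13 included and that of Rgs10 not. A match of this kind is a description of the letters and not a binding site.

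Levels of different genes were compared per transcript length, with the deposited log2 RPKM (RPKM is a read count scaled to transcript length and library size, quantile normalized here by the authors). In naive control cells Gnai2 was by far the most abundant of the 9, at a log2 RPKM of 9.08 ± 0.12 (SD, n = 2), followed by Rgs19 at 6.87 ± 0.03. Gna13 (5.49 ± 0.0011) and Rgs14 (5.41 ± 0.04) were 0.08 apart. Rgs2 (3.94 ± 0.82), Rgs10 (3.61 ± 0.76) and Rgs18 (3.46 ± 0.18) followed, and the libraries of each overlapped those of its neighbor in this order. Rgs1 was lower and spread widely (0.78 ± 1.91), and Rgs16 was lowest (-5.16 ± 1.40).

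**Figure D1:**
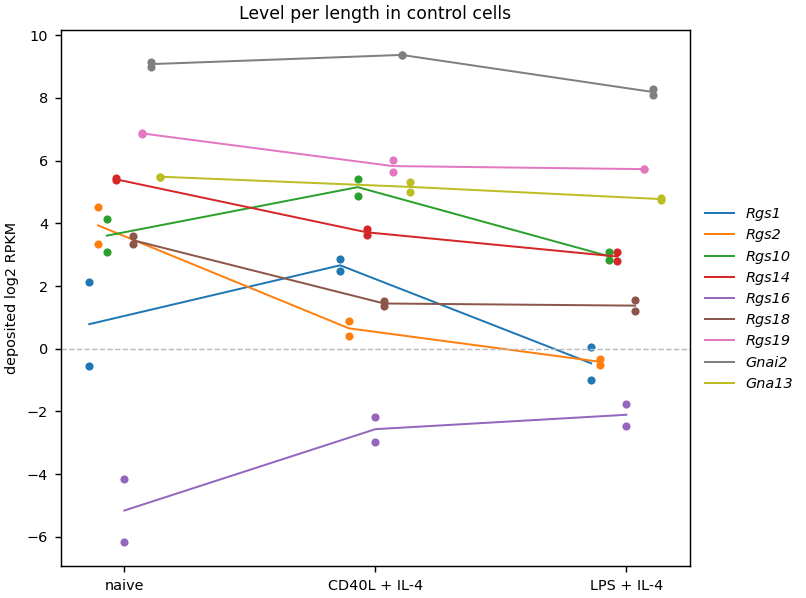
Deposited log2 RPKM (y axis) of the 9 genes in control cells at the 3 stages (x axis). Points are single libraries, 2 per gene and stage, lines join their means, and the dashed line marks a log2 RPKM of 0. Gnai2 sits at the top at every stage and Rgs16 at the bottom, while Rgs2 goes from a mean of 3.94 in naive cells to -0.42 after LPS + IL-4; the LPS + IL-4 values were normalized apart from the others.

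Stage was compared in control cells first, since it sets the levels that the mutants start from. Most of these genes were lower after LPS + IL-4, while after CD40L + IL-4 some rose and more fell. Differential expression (DE) was called with a Benjamini-Hochberg adjusted p under 0.15 over all genes tested, a change of over 1.5-fold and a deposited log2 RPKM that averaged above 0 in the libraries of the stages compared, with edgeR's quasi-likelihood test on the counts. After CD40L + IL-4, 6 of the 9 genes were DE against naive control, 2 higher and 4 lower, where 35.1% of all 13684 genes tested were DE. After LPS + IL-4, 7 of 9 were DE, all lower, where 47.5% of all genes were DE. Between the cultures, 5 of 9 were DE, all lower after LPS + IL-4, where 31.2% of all genes were DE. The CD40L + IL-4 counts come from a separate table, while naive and LPS + IL-4 counts share 1. Stage and count table therefore cannot be told apart in comparisons with CD40L + IL-4. The log2 RPKM used for the threshold were normalized apart for LPS + IL-4.

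Rgs2, which encodes an RGS protein best known for acting on the Gq class of G proteins, showed the largest fall with activation of the 9 genes. It was at 67.0 and 30.2 CPM for naive control, 5.77 and 4.28 CPM after CD40L + IL-4 and 1.92 and 2.02 CPM after LPS + IL-4. All activated libraries lay below all naive ones. It fell 9.79-fold after CD40L + IL-4 (log2 fold change -3.29, SE 0.35, adjusted p = 2.1e-07) and 25-fold after LPS + IL-4 (-4.64, SE 0.36, adjusted p = 1.1e-09).

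Rgs14, whose protein carries an RGS domain, Ras-binding domains and a motif that binds inactive Gi subunits, fell from 98.2 and 100.3 CPM for naive control to 30.2 and 33.7 CPM after CD40L + IL-4 and 18.8 and 15.5 CPM after LPS + IL-4. The 3 stages did not overlap. The log2 fold changes against naive control were -1.66 (SE 0.16, adjusted p = 3.6e-08) and -2.57 (SE 0.16, adjusted p = 4.4e-11). Rgs18, an RGS gene of blood cells best known from platelets, fell by 1.91 (SE 0.30, adjusted p = 2.7e-05) and 2.15 (SE 0.29, adjusted p = 1.6e-06) on the log2 scale. Rgs19, which encodes a regulator of Gi class subunits, fell by 1.03 (SE 0.12, adjusted p = 7.1e-07) and 1.21 (SE 0.12, adjusted p = 3.0e-08).

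Rgs10 and Rgs1 took another course and were higher after CD40L + IL-4 than at the other stages. Rgs10, a small protein with little beyond its RGS domain, was at 14.4 and 6.66 CPM for naive control, 26.9 and 38.1 CPM after CD40L + IL-4 and 7.0 and 5.5 CPM after LPS + IL-4. It rose by 1.60 (SE 0.32, adjusted p = 0.00031) on the log2 scale after CD40L + IL-4 and was 2.39 lower after LPS + IL-4 than after CD40L + IL-4 (log2 fold change -2.39, SE 0.32, adjusted p = 6.4e-06). Its fall from naive cells to LPS + IL-4 (-0.79, SE 0.32, adjusted p = 0.037) was not DE without replicate 1 of naive control (-0.14, adjusted p = 0.763), nor without replicate 2 of LPS + IL-4 control (-0.61, adjusted p = 0.209).

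Rgs1, which encodes a brake on chemokine responses of B cells, was at 5.2 and 0.732 CPM (69 and 10 counts) for naive control, 7.83 and 10.1 CPM after CD40L + IL-4 and 1.25 and 0.518 CPM after LPS + IL-4. The 2 naive libraries differed more than any other pair of this gene in control cells. The rise after CD40L + IL-4 was 1.57 (SE 0.52, adjusted p = 0.015) on the log2 scale, and it was not DE without replicate 2 of naive control (0.76, adjusted p = 0.154). The difference between the cultures was -3.45 (SE 0.55, adjusted p = 4.2e-05), with all LPS + IL-4 libraries below all CD40L + IL-4 libraries.

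Gnai2 and Gna13 stayed abundant at every stage. Gnai2 was at 1285 and 1321 CPM for naive control, 1216 and 1337 CPM after CD40L + IL-4 and 634 and 619 CPM after LPS + IL-4, a fall of 1.08 (SE 0.12, adjusted p = 9.0e-08) on the log2 scale in LPS + IL-4 against naive. Gna13 was at 293 and 277 CPM, 248 and 193 CPM, and 159 and 177 CPM at the same stages, a fall of 0.79 (SE 0.12, adjusted p = 5.9e-06) in LPS + IL-4. Rgs16, by contrast, was close to the limit of detection in control cells at all stages, with 0 and 1 counts in naive cells, 6 and 3 after CD40L + IL-4 and 9 and 30 after LPS + IL-4. The library at 0 counts allows a level of up to 0.226 CPM (3 counts), for counting error only.

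**Figure D2:**
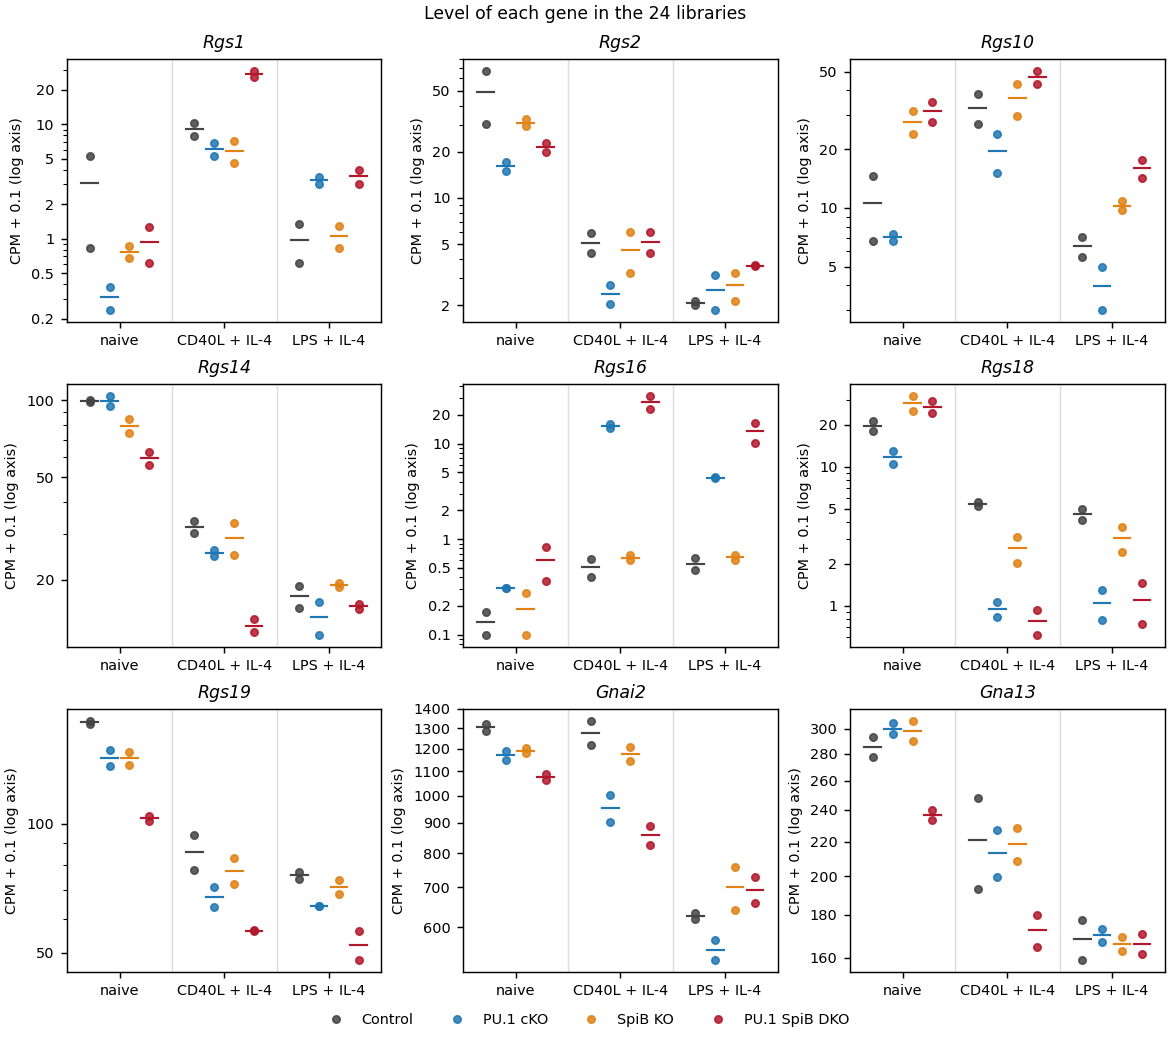
CPM plus 0.1 (log axis, a scale of its own in each panel) of the 9 genes in all 24 libraries, by stage (x axis) and genotype (color). Points are single libraries and bars their means, with 2 libraries per group. Rgs16 in the activated libraries without PU.1 (4.27 to 31.5 CPM) lies above every control and SpiB KO library (at most 0.587 CPM).

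The mutants were then compared with control within each stage, which asks whether these genes depend on PU.1, SpiB or both. In naive cells 8 of the 9 genes had enough counts to be tested. Of these, 2 were DE in PU.1 cKO, both lower (8.4% of all 12500 genes tested were DE), 1 for SpiB KO, higher (6.35%), and 4 for PU.1 SpiB DKO, 1 higher and 3 lower (14.1%). After CD40L + IL-4, with all 9 tested, 3 were DE in PU.1 cKO, 1 higher and 2 lower (9.36%), 0 for SpiB KO (0.11%, 14 of 12721 genes) and 4 with both factors lost, 2 higher and 2 lower (13.7%). After LPS + IL-4, 3 were DE in PU.1 cKO, 1 higher and 2 lower (6.67%), 0 for SpiB KO (2.29%) and 3 with both factors lost, 2 higher and 1 lower (13.6%). The median log2 fold change of the genes tested in PU.1 SpiB DKO was -0.53 in naive cells, -0.34 after CD40L + IL-4 and 0.23 after LPS + IL-4, where that of all genes was between 0.00 and 0.01. The 3 mutants share the control libraries of their stage. Of the genes tested in SpiB KO, 2 were at an unadjusted p under 0.05 after CD40L + IL-4, with 0 called by DESeq2 or voom, and 1 after LPS + IL-4, with 1 called by DESeq2 and 0 by voom. These counts are from fits without a replicate block. With the replicate number as a block, Rgs10 was called in SpiB KO after LPS + IL-4 (log2 fold change 0.73, edgeR adjusted p = 0.076).

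PU.1 SpiB DKO was also compared with each single mutant. In naive cells 3 of the 8 genes were DE against PU.1 cKO (7.21% of all genes) and 0 against SpiB KO (1.98%), where 3 were at an unadjusted p under 0.05 and DESeq2 and voom called 0. After CD40L + IL-4, 4 of 9 were DE against PU.1 cKO (3.01%) and 3 of 9 against SpiB KO (11.4%). After LPS + IL-4 the numbers were 1 of 9 (8.11%) and 3 of 9 (8.09%).

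**Figure D3:**
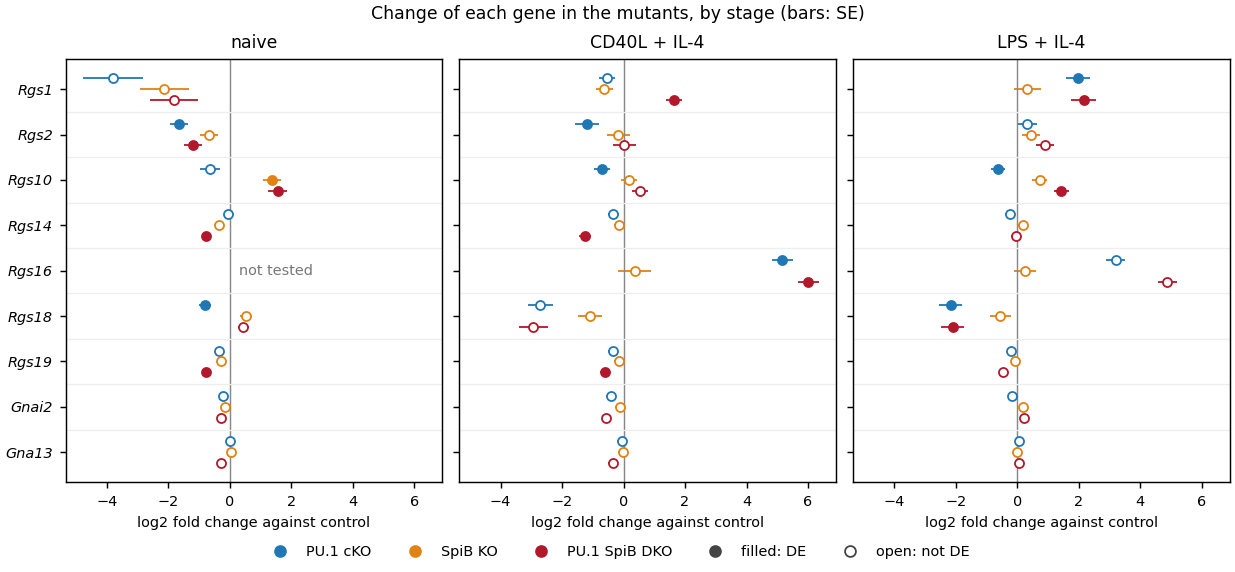
Log2 fold change against control (x axis) of the 9 genes (y axis) in the 3 mutants (color), with 1 panel per stage and 2 libraries per group. Bars are standard errors, filled points are DE and open points are not. The points of Rgs16 lie farthest to the right, at 6.01 for the double mutant and 5.17 for PU.1 cKO after CD40L + IL-4, and Rgs16 was not tested in naive cells.

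The largest changes were those of Rgs16, an RGS gene induced on lymphocyte activation whose product acts on Gi and Gq class subunits. After CD40L + IL-4 it was at 0.516 and 0.305 CPM for control and 0.576 and 0.508 CPM for SpiB KO, against 16 and 14.6 CPM for PU.1 cKO and 31.5 and 22.9 CPM for PU.1 SpiB DKO. The groups without PU.1 did not overlap those with it. Over both libraries control had 9 counts, SpiB KO 12, the double mutant 550 and PU.1 cKO 1072. Per library size, PU.1 cKO was 35.3-fold above control (95% interval 18.5 to 77.3, counting error only) and PU.1 SpiB DKO 64.2-fold (33.5 to 141), while SpiB KO was 1.29-fold above control (0.497 to 3.46). The tests gave log2 fold changes of 5.17 (SE 0.35, adjusted p = 8.7e-06) in PU.1 cKO and 6.01 (SE 0.34, adjusted p = 2.5e-06) in PU.1 SpiB DKO, and 5.65 (SE 0.33, adjusted p = 5.8e-06) for PU.1 SpiB DKO against SpiB KO. The excess of PU.1 SpiB DKO over PU.1 cKO was 0.84 (SE 0.22, adjusted p = 0.096), a difference that was not DE when 1 of 3 libraries was left out (0.59, 0.76 and 0.90 without replicate 1 of PU.1 SpiB DKO, replicate 2 and replicate 1 of PU.1 cKO).

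Rgs16 was higher in the same mutants after LPS + IL-4, at lower levels. It was at 0.375 and 0.536 CPM for control, 0.587 and 0.511 CPM for SpiB KO, 4.35 and 4.27 CPM for PU.1 cKO and 16.5 and 10.2 CPM for PU.1 SpiB DKO. The log2 fold changes were 3.20 (SE 0.30, adjusted p = 0.00018) in PU.1 cKO and 4.88 (SE 0.30, adjusted p = 7.0e-06) in PU.1 SpiB DKO, and 1.68 (SE 0.23, adjusted p = 0.0024) between them. These passed the adjusted p and the fold but were not called DE, because the mean log2 RPKM over the 8 libraries was below 0. Without that threshold, or with it set on the higher group (a setting chosen after seeing the data), all 3 were DE. By counting, PU.1 cKO was 8.87-fold above control (95% interval 6.4 to 12.6) and PU.1 SpiB DKO 28.1-fold (20.4 to 39.8). In naive cells Rgs16 had 4 and 13 counts in PU.1 SpiB DKO, 0 and 3 in SpiB KO, and 3 in each PU.1 cKO library, too few for a test.

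Markers of plasma cells, and some of germinal center B cells and T cells, moved with Rgs16 in the activated cultures. The summed level of Sdc1, Prdm1, Xbp1, Jchain and Tnfrsf17 was 809 and 946 CPM for control after CD40L + IL-4, 745 and 1006 CPM for SpiB KO, 1145 and 1349 CPM for PU.1 cKO and 1657 and 1834 CPM for PU.1 SpiB DKO. Of the 5 markers tested there, 2 were DE and higher in PU.1 cKO and 4 in PU.1 SpiB DKO. After LPS + IL-4 the sums were 384 and 388 CPM for control, 424 and 464 CPM for SpiB KO, 708 and 770 CPM for PU.1 cKO and 1060 and 1075 CPM for PU.1 SpiB DKO, with Tnfrsf17 at 0 in 3 of the 8 libraries of each culture. The summed level of 5 germinal center markers after CD40L + IL-4 was 77.1 and 104 CPM for control, 76.5 and 135 CPM for SpiB KO, 223 and 233 CPM for PU.1 cKO and 229 and 251 CPM for PU.1 SpiB DKO, and after LPS + IL-4 it was 26.7 to 40.0 CPM in the groups with PU.1 and 68.6 to 98.2 CPM in those without. All 5 were tested. After CD40L + IL-4, 1 was DE and higher in PU.1 cKO and 2 in PU.1 SpiB DKO, and after LPS + IL-4 1 in each. Bcl6 was DE and lower in both mutants without PU.1 after CD40L + IL-4 and in PU.1 cKO after LPS + IL-4. After CD40L + IL-4 the middle value of the 5 log2 changes was a fall of 0.38 in PU.1 cKO. The higher sum there thus came from a minority of the list. In PU.1 SpiB DKO the middle value was a rise of 0.90, and after LPS + IL-4 a rise of 1.38 in each. The sum of 8 T cell markers after CD40L + IL-4 was 2.85 and 7.83 CPM for control, 3.47 and 7.30 CPM for SpiB KO, 30.3 and 44.5 CPM for PU.1 cKO and 21.9 and 45.4 CPM for PU.1 SpiB DKO. After LPS + IL-4 it was 1.59 and 3.33 CPM for control, 2.00 and 2.35 CPM for SpiB KO, 3.72 and 5.25 CPM for PU.1 cKO and 27.9 and 29.7 CPM for PU.1 SpiB DKO. Of the T cell markers tested, Cd28, which made up most of these sums in the mutants without PU.1, was the one that was DE and higher, and Cd3e was at 0 in 5 of the 8 libraries after CD40L + IL-4 and in 6 of 8 after LPS + IL-4. The cells had been sorted as CD3- B220+ CD138-. The part of these markers in the Rgs16 result was not tested. In such bulk samples, more or fewer cells of a type and more or less RNA per cell cannot be told apart.

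Rgs1 rose in PU.1 SpiB DKO in both cultures, and in PU.1 cKO after LPS + IL-4. After CD40L + IL-4 it was at 7.83 and 10.1 CPM for control, 5.24 and 6.84 CPM for PU.1 cKO, 7.10 and 4.49 CPM for SpiB KO and 25.7 and 29.2 CPM for PU.1 SpiB DKO. Both PU.1 SpiB DKO libraries lay above the 6 others, and both libraries of each single mutant lay below both control libraries. The rise in PU.1 SpiB DKO was 3.09-fold against control (log2 fold change 1.63, SE 0.26, adjusted p = 0.002), 4.47-fold against PU.1 cKO (2.16, SE 0.26, adjusted p = 0.0014) and 4.79-fold against SpiB KO (2.26, SE 0.27, adjusted p = 0.00049). In the single mutants PU.1 cKO and SpiB KO the log2 fold changes were -0.53 (SE 0.26, adjusted p = 0.26) and -0.63 (SE 0.27, adjusted p = 1.0).

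After LPS + IL-4, Rgs1 was higher in both mutants without PU.1. It was at 1.25 and 0.518 CPM for control, 1.19 and 0.724 CPM for SpiB KO, 3.34 and 2.93 CPM for PU.1 cKO and 3.91 and 2.94 CPM for PU.1 SpiB DKO, with no overlap between the first 2 groups and the last 2. It rose 3.95-fold in PU.1 cKO (1.98, SE 0.40, adjusted p = 0.011) and 4.48-fold in PU.1 SpiB DKO (2.16, SE 0.40, adjusted p = 0.0032), and these mutants differed by 0.18 (SE 0.35, adjusted p = 0.74). Whether the effect of PU.1 loss on Rgs1 differs between the cultures was not tested.

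In naive cells the data on Rgs1 rest on few counts. Control had 69 and 10 counts, PU.1 cKO 4 and 2, SpiB KO 12 and 10, and PU.1 SpiB DKO 18 and 9. The log2 fold change in PU.1 cKO was -3.81 (SE 0.97, adjusted p = 0.047), not called DE because its mean log2 RPKM was below 0, and -1.86 without replicate 1 of control. In PU.1 SpiB DKO it was -1.82 (SE 0.78, adjusted p = 0.13), and 0.12 without that library. Replicate 1 of naive control also held more of the markers of other cell types than replicate 2, with summed levels of 60.5 against 19.6 CPM for 8 T cell markers, 318 against 196 CPM for 6 plasmacytoid dendritic cell (pDC) markers and 106 against 43.6 CPM for 4 NK cell markers. Their part in the Rgs1 values was not tested.

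In naive cells Rgs2 fell in PU.1 cKO and also in PU.1 SpiB DKO, where Spi1 was higher than in PU.1 cKO. It was at 67.0 and 30.2 CPM for control, 14.8 and 17.1 CPM for PU.1 cKO, 32.4 and 29.3 CPM for SpiB KO and 22.9 and 19.8 CPM for PU.1 SpiB DKO. Both PU.1 cKO and both PU.1 SpiB DKO libraries lay below both control libraries, while those of SpiB KO overlapped control. The fall was 3.15-fold in PU.1 cKO (-1.66, SE 0.30, adjusted p = 0.011) and 2.30-fold in PU.1 SpiB DKO (-1.2, SE 0.29, adjusted p = 0.018), and it was -0.67 (SE 0.28, adjusted p = 0.23) in SpiB KO. Replicate 1 of control holds the higher value and more of the T cell, pDC and NK cell markers above. Without that library, the value of PU.1 SpiB DKO was -0.57 and no longer DE.

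In activated cells Rgs2 was low throughout. After CD40L + IL-4 it was at 5.77 and 4.28 CPM for control, 2.62 and 1.93 CPM for PU.1 cKO, 5.86 and 3.13 CPM for SpiB KO and 5.92 and 4.26 CPM for PU.1 SpiB DKO. It was DE and 2.28-fold lower in PU.1 cKO alone (-1.19, SE 0.38, adjusted p = 0.084), a call lost without replicate 1 of control (-0.95) or replicate 2 of PU.1 cKO (-0.91), the deepest library of that stage. After LPS + IL-4 it was at 1.92 and 2.02 CPM for control and 3.5 and 3.53 CPM for PU.1 SpiB DKO (0.92, SE 0.29, adjusted p = 0.039), a difference not called DE because of the low log2 RPKM. In PU.1 cKO it was at 3.03 and 1.77 CPM and in SpiB KO at 3.14 and 2.05 CPM.

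Rgs18 was lower in activated cells without PU.1. After CD40L + IL-4 it was at 5.51 and 5.09 CPM for control, 1.92 and 3.05 CPM for SpiB KO, 0.971 and 0.724 CPM for PU.1 cKO and 0.520 and 0.833 CPM for PU.1 SpiB DKO. The 3 mutants lay below control, and those without PU.1 below SpiB KO. The log2 fold changes were -2.71 (SE 0.41, adjusted p = 0.0023) in PU.1 cKO and -2.93 (SE 0.46, adjusted p = 0.0019) in PU.1 SpiB DKO. As for Rgs16, a mean log2 RPKM below 0 kept both from being called DE, and both were DE without that threshold. Over both libraries PU.1 cKO had 55 counts, the double mutant 14 and control 114, which per library size is 0.143 of control (95% interval 0.102 to 0.199, counting error only) and 0.129 (0.0683 to 0.225). In SpiB KO the log2 fold change was -1.08 (SE 0.39, adjusted p = 0.99).

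After LPS + IL-4, Rgs18 was DE and lower in both mutants without PU.1. It was at 4.04 and 4.84 CPM for control, 3.56 and 2.34 CPM for SpiB KO, 1.2 and 0.686 CPM for PU.1 cKO and 0.644 and 1.35 CPM for PU.1 SpiB DKO. It fell 4.48-fold in PU.1 cKO (-2.16, SE 0.37, adjusted p = 0.0049) and 4.29-fold in PU.1 SpiB DKO (-2.10, SE 0.38, adjusted p = 0.003). PU.1 SpiB DKO was also 2.94-fold below SpiB KO (-1.55, SE 0.39, adjusted p = 0.023), a call lost without replicate 1 of SpiB KO (-1.22, adjusted p = 0.167). Macrophage markers fell with Rgs18 in these cultures. The summed level of 8 of them, among them Csf1r, Cd68 and Lyz2, was 43.6 and 57.9 CPM for control after CD40L + IL-4, 57.9 and 39.7 CPM for SpiB KO, 10.1 and 8.77 CPM for PU.1 cKO and 11.5 and 8.61 CPM for PU.1 SpiB DKO. Csf1r and Cd14 were at 0 in all 8 libraries there and Lyz2 in 5. Of the 3 markers tested, 2 were DE and lower in each of the mutants without PU.1. After LPS + IL-4 the sums were 17.9 and 11.6 CPM for control, 20.4 and 22.5 CPM for SpiB KO, 5.82 and 3.51 CPM for PU.1 cKO and 6.90 and 5.73 CPM for PU.1 SpiB DKO, with 1 of 3 lower in PU.1 cKO and 2 in PU.1 SpiB DKO. The 6 platelet markers summed to 37.0 to 53.6 CPM after CD40L + IL-4, nearly all of it from Itgb3, while Pf4, Ppbp and Gp1bb were at 0 in all 8 libraries. After LPS + IL-4 the sums were 16.3 and 16.5 CPM for control, 20.9 and 21.6 CPM for SpiB KO, 24.1 and 34.7 CPM for PU.1 cKO and 35.6 and 41.0 CPM for PU.1 SpiB DKO, with Itgb3, the single marker tested, DE and higher in both mutants without PU.1. The part of other cells in the Rgs18 values was not tested.

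In naive cells Rgs18 was called in PU.1 cKO, where it was lower. It was at 21.2 and 17.9 CPM for control, 12.8 and 10.3 CPM for PU.1 cKO, 32.1 and 24.8 CPM for SpiB KO and 29.6 and 24.2 CPM for PU.1 SpiB DKO. The groups with and without SpiB did not overlap. The fall in PU.1 cKO was 1.77-fold (-0.82, SE 0.20, adjusted p = 0.038), a call lost without replicate 2 of PU.1 cKO (-0.69, adjusted p = 0.215). PU.1 SpiB DKO was 2.39-fold above PU.1 cKO (1.26, SE 0.20, adjusted p = 0.0024), while the values against control were 0.51 (SE 0.19, adjusted p = 0.17) in SpiB KO and 0.44 (SE 0.19, adjusted p = 0.13) in PU.1 SpiB DKO.

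Rgs10 rose in naive cells without SpiB. It was at 14.4 and 6.66 CPM for control and 7.27 and 6.69 CPM for PU.1 cKO, against 31.1 and 23.8 CPM for SpiB KO and 34.9 and 27.3 CPM for PU.1 SpiB DKO. The groups without SpiB did not overlap those with it. The rise was 2.57-fold in SpiB KO (1.36, SE 0.30, adjusted p = 0.029), where the call was lost without replicate 1 of SpiB KO (1.16, adjusted p = 0.207), and 2.93-fold in PU.1 SpiB DKO (1.55, SE 0.30, adjusted p = 0.0062). PU.1 SpiB DKO was also 4.58-fold above PU.1 cKO (2.19, SE 0.31, adjusted p = 0.0013).

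Some markers of other cell types were higher in the same naive libraries. The summed level of the 6 pDC markers Siglech, Bst2, Klk1, Ccr9, Pacsin1 and Cox6a2, each detected in all 8 libraries, was 318 and 196 CPM for control, 259 and 240 CPM for PU.1 cKO, 1347 and 1070 CPM for SpiB KO and 1526 and 1421 CPM for PU.1 SpiB DKO, and all 6 were DE in both. That of 8 T cell markers was 60.5 and 19.6 CPM, 35.4 and 38.3 CPM, 453 and 364 CPM, and 509 and 497 CPM in the same order, with 4 of the 6 tested DE in both, and with Cd3e at 0 in 1 and Trat1 at 0 in 4 of the 8 libraries. The macrophage markers gave 14.2 to 27.2 CPM for control and PU.1 cKO and 55.6 to 78.1 CPM in the groups without SpiB. The cells had been sorted as CD3- B220+ CD138-. The part of these markers in the naive values of Rgs10 and Rgs18 was not tested. In the cultures the pDC sums of all groups were between 41.6 and 96.9 CPM, and Klk1 was at 0 in all 16 libraries.

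**Figure D4:**
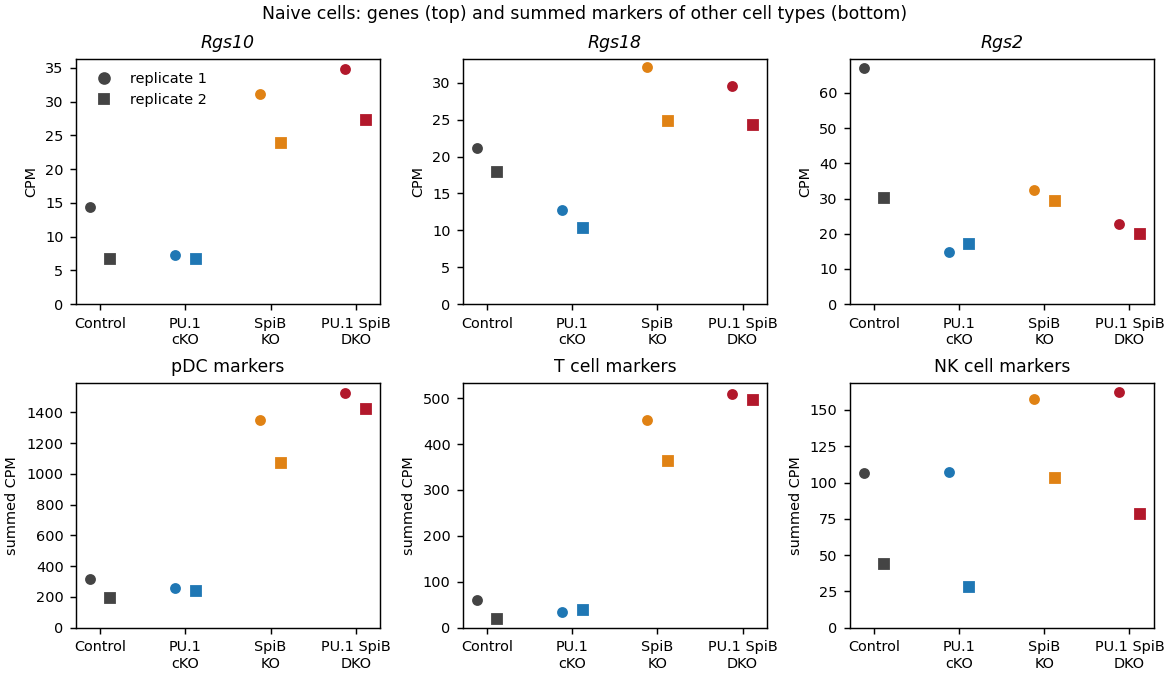
CPM of Rgs10, Rgs18 and Rgs2 (top) and summed CPM of the pDC, T cell and NK cell markers (bottom) in the 8 naive libraries, by genotype (x axis). Circles are replicate 1 and squares replicate 2. Rgs10, the pDC sum and the T cell sum are each higher in the 4 libraries without SpiB than in the 4 with it, and Rgs2 is highest in replicate 1 of control (67.0 CPM).

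After activation Rgs10 was lower in PU.1 cKO and, with LPS + IL-4, higher in PU.1 SpiB DKO. In LPS + IL-4 cultures it was at 7.0 and 5.5 CPM for control, 4.85 and 2.90 CPM for PU.1 cKO, 9.61 and 10.7 CPM for SpiB KO and 14.2 and 17.6 CPM for PU.1 SpiB DKO, an order in which no group overlapped another. PU.1 SpiB DKO was 2.71-fold above control (1.44, SE 0.24, adjusted p = 0.0017), 4.17-fold above PU.1 cKO (2.06, SE 0.24, adjusted p = 0.001) and 1.63-fold above SpiB KO (0.71, SE 0.23, adjusted p = 0.061), the last a call lost without replicate 1 of SpiB KO (0.60) or replicate 2 of PU.1 SpiB DKO (0.52). The fall in PU.1 cKO (-0.62, SE 0.24, adjusted p = 0.147) lay at the threshold and was lost without replicate 1 of control (-0.43) or replicate 2 of PU.1 cKO (-0.35). In SpiB KO the change was 0.73 (SE 0.24, adjusted p = 0.19), and it was DE with the replicate number as a block (0.73, adjusted p = 0.076).

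After CD40L + IL-4, Rgs10 was at 26.9 and 38.1 CPM for control, 15 and 23.7 CPM for PU.1 cKO, 43.2 and 29.5 CPM for SpiB KO and 42.8 and 50.2 CPM for PU.1 SpiB DKO. It fell by 0.71 (SE 0.26, adjusted p = 0.128) on the log2 scale in PU.1 cKO, a call lost without replicate 1 of PU.1 cKO (-0.43, adjusted p = 0.450) or replicate 2 of control (-0.43, adjusted p = 0.479). PU.1 SpiB DKO was 2.37-fold above PU.1 cKO (1.25, SE 0.26, adjusted p = 0.039), lost without replicate 1 of PU.1 cKO (0.97) or replicate 2 of PU.1 SpiB DKO (1.12). Against control PU.1 SpiB DKO gave 0.53 (SE 0.26, adjusted p = 0.2).

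Rgs14 fell in PU.1 SpiB DKO at 2 of the 3 stages and was called in neither single mutant. In naive cells it was at 98.2 and 100.3 CPM for control, 104 and 94.4 CPM for PU.1 cKO, 84.1 and 74.5 CPM for SpiB KO and 56.0 and 62.9 CPM for PU.1 SpiB DKO, which lay below the 6 others. The fall was 1.70-fold against control (-0.76, SE 0.12, adjusted p = 0.0022) and 1.62-fold against PU.1 cKO (-0.70, SE 0.12, adjusted p = 0.0045). Against SpiB KO it was 1.33-fold and not DE (-0.41, SE 0.12, adjusted p = 0.16). SpiB KO itself lay below control (-0.35, SE 0.12, adjusted p = 0.13), a change that passed the adjusted p but was below 1.5-fold. After CD40L + IL-4 it was at 30.2 and 33.7 CPM for control, 25.9 and 24.7 CPM for PU.1 cKO, 33.2 and 24.9 CPM for SpiB KO and 13.9 and 12.4 CPM for PU.1 SpiB DKO. There PU.1 SpiB DKO fell 2.41-fold against control (-1.27, SE 0.19, adjusted p = 0.0016), 1.91-fold against PU.1 cKO (-0.93, SE 0.19, adjusted p = 0.036) and 2.19-fold against SpiB KO (-1.13, SE 0.19, adjusted p = 0.0042). The call against PU.1 cKO was lost without replicate 2 of PU.1 SpiB DKO (-0.86, adjusted p = 0.222). After LPS + IL-4, where control had 18.8 and 15.5 CPM and PU.1 SpiB DKO 16.1 and 15.2 CPM, the change was -0.04 (SE 0.16, adjusted p = 0.86).

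Rgs19 also fell in PU.1 SpiB DKO in naive cells and after CD40L + IL-4. In naive cells it was at 171 and 174 CPM for control, 148 and 136 CPM for PU.1 cKO, 147 and 137 CPM for SpiB KO and 104 and 101 CPM for PU.1 SpiB DKO. Control lay above the single mutants and PU.1 SpiB DKO below them. The fall in PU.1 SpiB DKO was 1.70-fold (-0.77, SE 0.10, adjusted p = 0.00092), and the changes in PU.1 cKO (-0.34, SE 0.10, adjusted p = 0.08) and SpiB KO (-0.31, SE 0.10, adjusted p = 0.13) were below 1.5-fold. After CD40L + IL-4, PU.1 SpiB DKO was at 56.1 and 56.3 CPM against 77.9 and 93.9 CPM for control (-0.60, SE 0.16, adjusted p = 0.032), a call lost without replicate 2 of control (-0.45), replicate 2 of PU.1 SpiB DKO (-0.59, adjusted p = 0.163) or with voom and quantile normalization. After LPS + IL-4 it was at 48.1 and 56.0 CPM against 74.2 and 77 CPM (-0.46, SE 0.09, adjusted p = 0.0044), a change below 1.5-fold.

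Gnai2 and Gna13 were DE in no mutant at any stage. The largest change of Gnai2 was in PU.1 SpiB DKO after CD40L + IL-4, at 888 and 826 CPM against 1216 and 1337 CPM for control (-0.56, SE 0.15, adjusted p = 0.032), a 1.48-fold fall just short of the fold threshold. PU.1 cKO was at 903 and 1004 CPM there (-0.42, SE 0.15, adjusted p = 0.12). In naive cells Gnai2 was at 1062 and 1086 CPM for PU.1 SpiB DKO against 1285 and 1321 CPM (-0.30, SE 0.10, adjusted p = 0.069), and after LPS + IL-4 at 659.8 and 728 CPM against 634 and 619 CPM (0.23, SE 0.10, adjusted p = 0.12). Gna13 was at 233 and 240.0 CPM in naive PU.1 SpiB DKO against 293 and 277 CPM for control (-0.29, SE 0.10, adjusted p = 0.059), at 179.9 and 165 CPM against 248 and 193 CPM after CD40L + IL-4 (-0.34, SE 0.17, adjusted p = 0.2) and at 161 and 171 CPM against 159 and 177 CPM after LPS + IL-4 (0.07, SE 0.08, adjusted p = 0.57).

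Whether losing both factors differed from the sum of the single losses was tested as an interaction. In naive cells this test is limited by the Spi1 exon that PU.1 SpiB DKO partly retained. SpiB KO, the group without Cre, enters every interaction. Rgs1 after CD40L + IL-4 was called, with a departure of 2.79 (SE 0.37, adjusted p = 0.0084) on the log2 scale. It was the single gene of 9 to pass an adjusted p under 0.15 in that stage (1.17% of all genes did). In naive cells 0 of 8 did (0.936% of all genes), with 4 at an unadjusted p under 0.05, 2 called by DESeq2 and 0 by voom. After LPS + IL-4, 0 of 9 did (1.48%), with 2 at an unadjusted p under 0.05, 2 called by DESeq2 and 1 by voom. In naive cells the departure of Rgs1 was larger, at 4.13, but had a wider error (SE 1.33, adjusted p = 0.29) and rested on few counts. It was called by DESeq2 (4.20, adjusted p = 0.077) and in a fit of all 24 libraries (4.14, adjusted p = 0.11), and was 2.17 (adjusted p = 0.33) without replicate 1 of control. In activated cells the next departures were those of Rgs10 after LPS + IL-4 (1.33, SE 0.33, adjusted p = 0.16) and Rgs16 after LPS + IL-4 (1.43, SE 0.44, adjusted p = 0.27), which passed with the replicate number as a block (1.33, adjusted p = 0.045, and 1.52, adjusted p = 0.091). The departure of Rgs16 after CD40L + IL-4 was 0.48 (SE 0.60, adjusted p = 0.97).

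Whether the effect of losing both factors differed between stages was tested in a fit of all 24 libraries. Naive PU.1 SpiB DKO cells partly retained the floxed Spi1 exon, per the study. Stage and extent of deletion therefore cannot be told apart in the comparisons with naive cells. Between CD40L + IL-4 and naive cells 3 of 9 genes differed (16.8% of all genes), between LPS + IL-4 and naive cells 5 of 9 (29.6%) and between the cultures 2 of 9 (28.6%). The effect on Rgs18 was lower in both cultures than in naive cells, by 3.35 (log2 difference -3.35, SE 0.53, adjusted p = 0.00025) and 2.61 (-2.61, SE 0.42, adjusted p = 0.00031). The effects on Rgs1 were higher, by 3.5 (SE 0.78, adjusted p = 0.0065) and 3.94 (SE 0.82, adjusted p = 0.0029), and without replicate 1 of naive control they were 1.5 (adjusted p = 0.277), no longer called, and 1.95 (adjusted p = 0.105). The effect on Rgs14 was 1.14 (SE 0.23, adjusted p = 0.0034) higher after LPS + IL-4 than after CD40L + IL-4, and that on Gnai2 0.71 (SE 0.16, adjusted p = 0.0076) higher. Stage and count table cannot be told apart in the comparisons with CD40L + IL-4. Spi1, counted over the whole gene, was at 24.9 and 31.3 CPM in PU.1 SpiB DKO after CD40L + IL-4 (control 83.2 and 105 CPM). After LPS + IL-4 it was at 54.4 and 59.0 CPM (control 60.3 and 69.4 CPM). The part of Spi1 level in these differences was not tested.

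The other genes of the pathway were described with lists of G alpha subunits, G beta and gamma subunits, RGS genes, exchange and binding factors, effectors, receptor kinases and arrestins, and coupled receptors. Of their 87 genes, 59 were tested in naive cells, 61 after CD40L + IL-4 and 60 after LPS + IL-4.

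**Figure D5:**
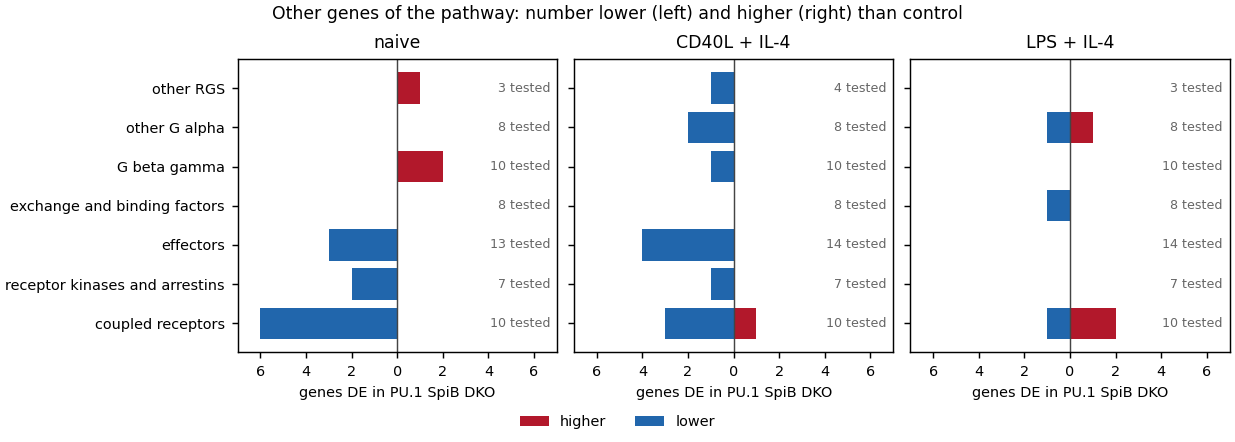
Number of genes DE in PU.1 SpiB DKO against control (x axis), lower to the left in blue and higher to the right in red, for the 7 other lists of the pathway (y axis) at the 3 stages. The grey text gives the number tested. In naive cells 6 of the 10 coupled receptors are lower, and after LPS + IL-4 1 is lower and 2 are higher.

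In PU.1 SpiB DKO, 3 of these genes were higher and 11 lower than control in naive cells, 1 higher and 12 lower after CD40L + IL-4, and 3 higher and 3 lower after LPS + IL-4. Of all genes tested, 7.39% were higher and 6.7% lower in naive cells, 5.84% and 7.82% after CD40L + IL-4, and 8.76% and 4.81% after LPS + IL-4. Among the receptors that signal through the G proteins studied here, 6 of 10 fell in naive cells, with Cxcr4, which guides cells to the ligand CXCL12, at -1.85 (SE 0.35, adjusted p = 0.0056) and Gpr183, which guides them by oxysterols, at -0.79 (SE 0.16, adjusted p = 0.0088). After CD40L + IL-4, Ccr6 fell by 3.12 (SE 0.22, adjusted p = 1.3e-05) and Cnr2 by 1.21 (SE 0.17, adjusted p = 0.0011) on the log2 scale. After LPS + IL-4, S1pr1 (1.2, SE 0.22, adjusted p = 0.003) and S1pr4 (1.12, SE 0.13, adjusted p = 0.00023), both receptors of sphingosine-1-phosphate, were higher.

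Arrb1, which encodes a beta arrestin that uncouples receptors, fell by 1.17 (SE 0.17, adjusted p = 0.0015) in naive PU.1 SpiB DKO and by 1.72 (SE 0.24, adjusted p = 0.00084) after CD40L + IL-4. Of the effectors, Pik3cg, the catalytic subunit of a phosphoinositide kinase driven by G beta gamma, fell by 0.88 (SE 0.13, adjusted p = 0.0015) and 1.07 (SE 0.28, adjusted p = 0.03), and Plcb2, a phospholipase C, fell by 1.27 (SE 0.24, adjusted p = 0.0064) after CD40L + IL-4. Of the other G alpha subunits, Gna15, of the Gq class, fell by 1.94 (SE 0.17, adjusted p = 4.9e-05) after CD40L + IL-4 and 0.83 (SE 0.15, adjusted p = 0.0026) after LPS + IL-4, where Gnaq rose by 1.07 (SE 0.15, adjusted p = 0.0007). Of the 14 other RGS genes, 3 were tested in naive cells and 4 after CD40L + IL-4. Rgs3 rose by 1.26 (SE 0.21, adjusted p = 0.0029) in naive cells while Rgs12 fell by 0.81 (SE 0.28, adjusted p = 0.082) after CD40L + IL-4. Gnb4 (1.78, SE 0.28, adjusted p = 0.0024) and Gng12 (1.18, SE 0.20, adjusted p = 0.0029) rose in naive cells.

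Between control stages more genes of the lists fell than rose. After CD40L + IL-4, 5 of 61 were higher and 23 lower than in naive control, 9 of them coupled receptors, where 17.7% of all genes were higher and 17.4% lower. After LPS + IL-4, 5 were higher and 28 lower, where 25.3% and 22.3% of all genes were. All 10 coupled receptors were lower after LPS + IL-4, led by Cxcr4 (-4.36, SE 0.37, adjusted p = 4.4e-09) and Ccr6 (-3.71, SE 0.18, adjusted p = 2.2e-12). Arrb1 fell by 3.46 (SE 0.21, adjusted p = 2.9e-11) and Gpsm3, which encodes a protein that binds inactive Gi subunits, fell by 2.86 (SE 0.18, adjusted p = 5.6e-11). Rgs12 (3.41, SE 0.30, adjusted p = 1.3e-08), Gnb4 (3.57, SE 0.44, adjusted p = 1.3e-06) and Gna15 (2.24, SE 0.16, adjusted p = 6.6e-10) were among the 5 that rose after CD40L + IL-4.

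For each of the 9 genes, the gene whose pattern over the 12 group means was most like it was found among 11220 genes, by the root mean square difference of centered log2 CPM, as a description over 12 points that share libraries. This difference grows with a gene's own range, so it does not rank the 9 genes against each other. Gna13 was closest to Gmcl1 (0.0749), Gnai2 to Zfand3 (0.0784) and Rgs19 to Rnf44 (0.115). Rgs14 was closest to Tmub1 (0.196), Rgs2 to Dusp6 (0.292), Rgs10 to Dap (0.502) and Rgs18 to Ms4a4c (0.538). Rgs1 was closest to Arc (0.799) and Rgs16 to Car5b (0.933), over ranges of their own of 6.62 and 7.96 on the log2 scale.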

How the data were processed

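RNA from sorted CD3- B220+ CD138- lymph node B cells was measured in 24 libraries. Per the labels, the authors deposited raw counts per gene, made with Subread and featureCounts on GRCm38 (versions not given in the sources used here), and log2 RPKM values, quantile normalized in 1 table for naive and CD40L + IL-4 libraries and another for LPS + IL-4. The 517 rows without a symbol (0.162% of counts) were kept. The 9 genes and the lists were chosen with earlier results of these data known.

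Counts were tested in R 4.3.3 with edgeR 4.0.16 (TMM, quasi-likelihood test) within each stage, and over all 24 libraries for stages, keeping genes that reached 0.5 CPM in 2 or more libraries. All adjusted p-values are Benjamini-Hochberg values over all genes tested. DE is defined above; interactions and differences between stages were called on the adjusted p alone. With 2 libraries against 2 an exact permutation test cannot go below p = 0.333, so none was used. DESeq2 1.42.0, voom (limma 3.58.1), other filters and thresholds, a replicate block and leaving out each library were the alternatives. The fits were also run on simulated counts, with a known change in genes that were not among the lowest and the same spread for every gene. Such a run does not cover genes with few counts or a wide spread between libraries, such as Rgs1 in naive cells.

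Pathway genes were named by size, up to 2 per list and stage in PU.1 SpiB DKO and up to 2 per list between control stages, among those called. Replicate libraries were correlated at r = 0.979 or above over genes, and no 2 were identical. Same-numbered LPS + IL-4 libraries deviated together (r of deviations 0.398 to 0.521 in 6 of 6 pairs), so the number was taken to pair them. In naive (5 of 6 above 0.1) and CD40L + IL-4 cells (3 of 6) it was not. The main tests used no replicate block at any stage, LPS + IL-4 included, and fits with the block are given as alternatives.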

Additional observations from a re-analysis of the deposited data

Results flagged for a closer look

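The effects below differed between groups by a test of the difference itself (edgeR, Benjamini-Hochberg adjusted p under 0.15), each from 2 libraries per group. For Rgs1 after CD40L + IL-4, the loss of both factors departed from the sum of the single losses by 2.79 on the log2 scale (adjusted p = 0.0084).

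Naive PU.1 SpiB DKO cells partly retained the floxed Spi1 exon. In the comparisons with naive cells here and below, stage and extent of deletion cannot be told apart. The effect of losing both factors on Rgs1 was 3.5 higher after CD40L + IL-4 than in naive cells (adjusted p = 0.0065) and 3.94 higher after LPS + IL-4 (adjusted p = 0.0029). Without replicate 1 of naive control these were 1.5 (adjusted p = 0.277), no longer called, and 1.95 (adjusted p = 0.105). The effect on Rgs2 was 1.25 higher (adjusted p = 0.13) and 2.06 higher (adjusted p = 0.005) in the same comparisons, and the first of these was lost when any of 6 libraries was left out. That on Rgs18 differed by -3.35 (adjusted p = 0.00025) and -2.61 (adjusted p = 0.00031).

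The effect on Rgs14 after LPS + IL-4 was 0.66 higher than in naive cells (adjusted p = 0.041; 0.48 without replicate 2 of LPS + IL-4 control, no longer called) and 1.14 higher than after CD40L + IL-4 (adjusted p = 0.0034). That on Gnai2 was 0.47 higher (adjusted p = 0.053; 0.42 and 0.36 without replicate 2 of LPS + IL-4 control or of LPS + IL-4 PU.1 SpiB DKO, neither called) and 0.71 higher (adjusted p = 0.0076). In the comparisons with CD40L + IL-4, stage and count table cannot be told apart. Spi1 counts in PU.1 SpiB DKO also lay farther below control after CD40L + IL-4 than after LPS + IL-4, and their part was not tested.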

How the results depend on the processing

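Over 210 results and their alternatives, no called value changed direction, 2702 of 2836 values kept their side of the threshold, 46 lost a call and 88 gained one. Leaving out 1 library at a time gave 6 to 9 calls against control in naive cells (7 with all libraries), 6 to 8 after CD40L + IL-4 (7), 5 to 7 after LPS + IL-4 (6), 12 to 14 against single mutants (14), 17 to 18 between control stages (18), 8 to 11 for differences of the effect between stages (10) and 1 to 4 interactions (1).

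The count of interactions was the least stable, with 5 by DESeq2, 2 by voom, 8 when no gene was filtered out and 3 in 1 fit of all 24 libraries. With the replicate number as a block, 7 interactions were called, and 16 differences of the effect between stages. Beyond the LPS + IL-4 calls given above, where the number pairs the libraries, the block changed no call in that stage. The causes were not tested.

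Without the log2 RPKM threshold, calls against control were 9 at each stage, and with it set on the higher group, a choice made after seeing the data, also 9. It alone held back 13 comparisons, 7 of them against control. At an adjusted p under 0.05 the counts were 7, 5 and 5. Depth limits Rgs16 in control cells and Rgs1 in naive cells, which had at most 30 and 69 counts per library.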
